A study of Mus musculus with 6 samples.

Results

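Regulatory T cells are CD4+ T cells that restrain other immune cells. The transcription factor Foxp3 defines them, and in tumors they are known for high levels of the IL-2 receptor alpha chain, of several TNF receptor family members and of chemokine receptors that guide them into tissue. They depend on IL-2, which signals through its receptor to the transcription factor STAT5, and activated conventional T cells make many of the same receptors. The 8 genes described here are Foxp3 and Ikzf2, which encode transcription factors, Il2ra, which encodes the IL-2 receptor alpha chain CD25, the TNF receptor genes Tnfrsf4 (OX40), Tnfrsf18 (GITR) and Tnfrsf9 (CD137), and the chemokine receptor genes Ccr4 and Ccr8. They were chosen by symbol, as 8 of the 55487 genes in the count table.

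RNA was sequenced from 6 subcutaneous tumors grown from CT26.WT, a colon carcinoma cell line of the BALB/c mouse strain, in immunocompetent male BALB/c mice of 4 weeks. IFN-γ, at 100 ng/ml and in 100 µL, was injected into the tail vein of 3 mice every 48 h, and 3 control mice were given PBS. All tumors carry CT26.WT cells labelled WT, so treatment is the only labelled difference between the groups. The comparison asks how the RNA of the whole tumor differed after IFN-γ stimulation, here for the genes of regulatory T cells that infiltrate it. In whole tumors, fewer cells of a type and less RNA per cell cannot be told apart. The labels call each sample a separate tumor of its group, and the p-values measure the spread between these tumors.

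The tumors had from 15759300 to 17559680 counts on genes. Levels are given as CPM, counts scaled to library size by the TMM factors of edgeR, and a count of 0 would have allowed up to between 0.169 and 0.187 CPM in a tumor, counting error only. IFN-γ tumor 3 stood apart from the rest of its group. The chi-square per gene between its counts and those of IFN-γ tumors 1 and 2 was 30.6 and 33.0, against 6.17 between IFN-γ tumors 1 and 2 and from 11.2 to 15.5 between control tumors. Between IFN-γ tumor 3 and control tumors 1 to 3 it was 17.6, 30.3 and 20. Between IFN-γ tumors 1 and 2 and the control tumors it was from 16.2 to 29.1. By this measure IFN-γ tumor 3 was nearer to control tumors 1 and 3 than to its own group. Pearson's r of log2 CPM with IFN-γ tumor 3 was 0.986, 0.981 and 0.981 for control tumors 1 to 3. It was 0.982 and 0.979 for IFN-γ tumors 1 and 2, so by r only control tumor 1 was nearer than both. The edgeR tests of the 8 genes are therefore given with and without IFN-γ tumor 3. Of the epithelial markers of a carcinoma, Epcam had from 1 to 15 counts and Krt18 lay between 6.41 and 10.4 CPM. Krt8 had 211 counts in control tumor 3 and from 3 to 22 in the other tumors.

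The genes lie on 5 chromosomes of the mouse genome (GRCm38, mm10). Foxp3 is at chrX:7573644-7595245 and Ikzf2 at chr1:69531214-69687245. Il2ra is at chr2:11642807-11693193. The TNF receptor genes share chromosome 4, with Tnfrsf9 at chr4:150914562-150946102, Tnfrsf4 at chr4:156013843-156016612 and Tnfrsf18 at chr4:156026164-156028895, and only 9551 bases separate the last pair. The chemokine receptor genes share chromosome 9, with Ccr4 at chr9:114490316-114504916 and Ccr8 at chr9:120092114-120094906. Exons of Foxp3 overlap those of 4 other genes, namely 853 bases of Flicr, a noncoding RNA, and on the opposite strand 590 bases of Ccdc22, 373 of Gm36995 and 266 of Ppp1r3f. The strandedness of the counting is not given in the sources used here, so reads in the shared bases could not be assigned with certainty. Ppp1r3f had from 22 to 44 counts in a tumor, Flicr from 2 to 9, Ccdc22 from 1 to 6 and Gm36995 at most 1, beside 20 to 88 for Foxp3. Tnfrsf18 shares 414 exon bases with the antisense gene Gm16008, which had at most 6 counts.

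STAT5, through which IL-2 signals, is known to bind a palindrome with the letters TTCNNNGAA. It was searched on both strands of the RefSeq promoters (GRCm38.p6, 250 bases before to 50 after the start) of 7 of the 8 genes, which have 9 entries. The palindrome was in 3 of the 9 entries and in 8.30% of the 32851 promoters of all genes. The 3 matches are shown on the + strand in 29 bases each, with the palindrome in capitals, because they are the only sequences of these promoters that carry it.
Foxp3, chrX:7580334-7580362: gagctctgttTTCCAAGAAcgggcattag
Tnfrsf9, chr4:150927853-150927881: caacagctgaTTCCAAGAAacccttcaga
Tnfrsf18, chr4:156026213-156026241: tgctctacacTTCACAGAAggcctttaca
Foxp3 and Tnfrsf9 each have more than 1 entry, and only the entry with the start farther downstream carries the palindrome. Counted from the start of the entry that carries it, the matches begin at base -139 for Foxp3, -136 for Tnfrsf9 and -99 for Tnfrsf18. The capitals of Foxp3 and Tnfrsf9 are the same 9 letters. In GENCODE M21 the Foxp3 stretch lies in an exon of Flicr and within the Foxp3 gene, the Tnfrsf18 stretch lies in an exon of Tnfrsf18, and the Tnfrsf9 stretch overlaps no exon and lies within Tnfrsf9 and Camta1. The core of the interferon-stimulated response element was in 0 of the 9 entries and in 3.44% of all promoters. The AP-1 palindrome TGANTCA was in an entry of Tnfrsf9 and in that of Ccr4, or 2 of 9, against 7.81% of all promoters. The RUNX core TGTGGT was in 1 of 9, an entry of Tnfrsf9, against 16.8%. These matches describe letters and do not show binding.

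Per length of exon (TPM, mean of the 6 tumors), Tnfrsf9 was the most abundant of the 8 genes at 35.1, above the median of 17.8 TPM over the genes tested. Tnfrsf18 followed at 9.29 TPM and Tnfrsf4 at 7.15. Ccr8 at 2.99 TPM, Il2ra at 2.67, Foxp3 at 1.87 and Ikzf2 at 1.32 lay lower, and Ccr4 was lowest at 0.636. Ranges over tumors overlapped between each pair of neighbours in this order except the first, since Tnfrsf9 spanned 29.3 to 40.3 TPM and Tnfrsf18 4.26 to 14. For scale, Cd3g, a chain of the CD3 complex that all T cells carry, had 12.8 TPM, and Cd4 had 7.43. All 8 genes passed the filter on low counts.

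Foxp3, the lineage factor of regulatory T cells, had 1.94, 2.87 and 2.97 CPM in control tumors 1 to 3 and 3.19, 5.37 and 1.24 CPM in IFN-γ tumors 1 to 3. IFN-γ tumors 1 and 2 were above every control, and IFN-γ tumor 3 was below every control. The log2 fold change was 0.33 ± 0.47 (SE, n = 3 and 3, edgeR quasi-likelihood test, Benjamini-Hochberg adjusted p = 0.863), with 2 SE spanning -0.61 to 1.27. Without IFN-γ tumor 3 it was 0.71 ± 0.32 (edgeR adjusted p = 0.317). Ikzf2 encodes Helios, a partner factor of Foxp3. It had 4.87, 5.01 and 5.82 CPM in the controls and 6.14, 6.83 and 2.53 CPM in the IFN-γ tumors. The order of the tumors was the same as for Foxp3, with IFN-γ tumor 2 at the top and IFN-γ tumor 3 at the bottom. Its log2 fold change was -0.02 ± 0.34 (edgeR adjusted p = 0.996), and 0.30 ± 0.19 without IFN-γ tumor 3 (edgeR adjusted p = 0.517).

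Il2ra encodes the chain that gives the IL-2 receptor its high affinity. It had 3.50, 5.01 and 5.48 CPM in the controls and 5.56, 8.42 and 3.27 CPM in the IFN-γ tumors. IFN-γ tumor 1 was barely above control 3, and tumors 2 and 3 of the IFN-γ group were the highest and the lowest. The log2 fold change was 0.30 ± 0.34 (edgeR adjusted p = 0.825), and 0.57 ± 0.27 without IFN-γ tumor 3 (edgeR adjusted p = 0.343). The other chains of the receptor are shared with other lymphocytes. Il2rb had 43.8, 66.6 and 55.0 CPM in the controls and 78.7, 97.8 and 27.5 CPM in the IFN-γ tumors, with the same tumors at both ends. Its log2 fold change was 0.30 ± 0.39 (edgeR adjusted p = 0.847), and 0.67 ± 0.16 without IFN-γ tumor 3 (edgeR adjusted p = 0.0708). Il2rg was steadier, at 51.3 CPM in the median control, 51.1 and 51.8 in the others, and 52.7, 59.4 and 40.4 CPM in the IFN-γ tumors (log2 fold change -0.02 ± 0.13, and 0.12 ± 0.08 without IFN-γ tumor 3). Il2, the ligand, had from 0 to 3 counts in a tumor and did not pass the filter.

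Tnfrsf4 and Tnfrsf18 encode costimulatory receptors that regulatory T cells of tumors carry. Tnfrsf4 had 2.81, 3.83 and 3.31 CPM in the controls and 4.06, 4.45 and 1.42 CPM in the IFN-γ tumors. Tnfrsf18 had 4.12, 4.45 and 5.25 CPM in the controls and 5.22, 7.57 and 2.41 CPM in the IFN-γ tumors. Both were highest in IFN-γ tumor 2 and lowest in IFN-γ tumor 3, and the neighbouring genes had the same ratio between these tumors, 3.14. The log2 fold change of Tnfrsf4 was 0.00 ± 0.39 (edgeR adjusted p = 1.0) and that of Tnfrsf18 was 0.14 ± 0.37 (edgeR adjusted p = 0.938). Without IFN-γ tumor 3 they were 0.35 ± 0.24 and 0.46 ± 0.23 (edgeR adjusted p = 0.549 and 0.389).

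Tnfrsf9, an activation-induced costimulatory receptor, differed from the other 7 genes. It had 34.1, 34.8 and 33.5 CPM in the controls and 28.2, 28.2 and 37.1 CPM in the IFN-γ tumors. Here IFN-γ tumors 1 and 2 were below every control and IFN-γ tumor 3 was above every control. The log2 fold change was -0.13 ± 0.12 (edgeR adjusted p = 0.779). Without IFN-γ tumor 3 it was -0.28 ± 0.09, with an unadjusted p of 0.0122 and an edgeR adjusted p of 0.152. The 5 tumors thus did not pass the threshold for this gene either. With from 463 to 618 counts in a tumor it was also the most deeply counted of the 8.

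The ligands of these TNF receptors were low. Tnfsf9, the ligand of CD137, had 9.30, 6.02 and 8.73 CPM in the controls and 8.00, 7.81 and 12.3 CPM in the IFN-γ tumors, with the highest level in IFN-γ tumor 3, as for its receptor (log2 fold change 0.22 ± 0.24, and -0.03 ± 0.21 without that tumor). Tnfsf18, the ligand of GITR, had from 5 to 17 counts and Tnfsf4, the ligand of OX40, from 2 to 7, and neither passed the filter in the 6 tumors. Of 8 TNF receptor adaptors and NF-κB subunits, 0 passed the threshold in either direction, with or without IFN-γ tumor 3 (edgeR). In the 6 tumors 1 had an unadjusted p under 0.05 by edgeR (against 10.2% of all genes), and 0 passed by DESeq2 or limma-voom. Their median log2 fold change was -0.03, beside 0.002 over all genes tested. Traf1, an adaptor of CD137, had 40.1, 54.6 and 47.8 CPM in the controls and 36.8, 43.6 and 29.3 CPM in the IFN-γ tumors (log2 fold change -0.38 ± 0.16, edgeR adjusted p = 0.477, and -0.25 ± 0.14 without IFN-γ tumor 3).

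Ccr8 and Ccr4 encode chemokine receptors of tumor-infiltrating and tissue-homing regulatory T cells. Ccr8 had 1.06, 1.52 and 1.20 CPM in the controls and 1.33, 1.89 and 0.124 CPM in the IFN-γ tumors. The value in IFN-γ tumor 3 rests on 2 counts, against 17 to 31 in each of the other tumors. Ccr4 had 0.562, 0.732 and 0.628 CPM in the controls and 0.464, 1.34 and 0.309 CPM in the IFN-γ tumors, from 5 to 22 counts. Only IFN-γ tumor 2 exceeded the controls for Ccr4, while tumors 1 and 3 of the group were below them. The log2 fold changes were -0.17 ± 0.65 for Ccr8 and 0.13 ± 0.56 for Ccr4 (edgeR adjusted p = 0.959 and 0.966), with 2 SE spanning -1.48 to 1.13 and -0.98 to 1.24, so that changes of 2-fold in either direction were near or within the interval at this depth.

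The chemokines that bind these receptors were detected at unequal levels. Ccl8, which activates CCR8 in the mouse, was abundant, at 211, 257 and 244 CPM in the controls and 336, 525 and 194 CPM in the IFN-γ tumors. IFN-γ tumors 1 and 2 were above every control and IFN-γ tumor 3 was below them. Its log2 fold change was 0.57 ± 0.30 (edgeR adjusted p = 0.565), and it passed the threshold without IFN-γ tumor 3, at 0.85 ± 0.17 (edgeR adjusted p = 0.0353). Without IFN-γ tumor 2 it was 0.16 (edgeR adjusted p = 0.954). Ccl1, the other CCR8 ligand, had from 3 to 18 counts (log2 fold change 0.57 ± 0.63, and 1.0 ± 0.50 without IFN-γ tumor 3). The CCR4 ligand Ccl22 had 5.62, 8.56 and 12.6 CPM in the controls and 7.13, 14.2 and 5.56 CPM in the IFN-γ tumors. The groups overlapped throughout, and its log2 fold change of 0.01 ± 0.39 changed sign between scalings. It was 0.25 ± 0.36 without IFN-γ tumor 3. Ccl17, the other CCR4 ligand, had 1.87, 1.46 and 1.60 CPM in the controls and 0.754, 1.34 and 0.926 CPM in the IFN-γ tumors. These groups, with 13 to 30 counts in a tumor, did not overlap, as held for 15.1% of all genes tested. The log2 fold change was -0.70 ± 0.32 (edgeR adjusted p = 0.504), and -0.66 ± 0.39 without IFN-γ tumor 3 (edgeR adjusted p = 0.471).

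**Figure D1:**
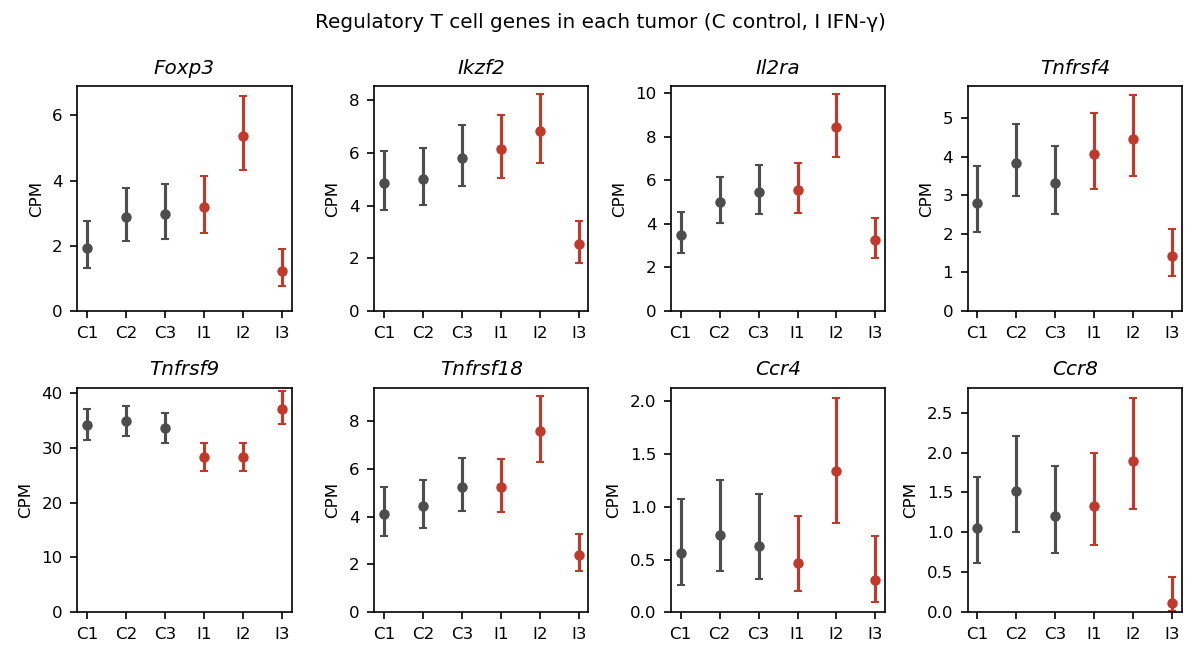
CPM of the 8 genes (vertical axes, each from 0) in control tumors (C1 to C3) and IFN-γ tumors (I1 to I3), with exact 95% Poisson intervals that cover counting error only. In 7 of the 8 panels IFN-γ tumor 2 is the highest point and IFN-γ tumor 3 the lowest, and in the Tnfrsf9 panel IFN-γ tumor 3 is the highest.

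Over the 8 genes, 0 passed the threshold in the 6 tumors, where 0.112% of all 15114 genes tested did (17 genes). Without IFN-γ tumor 3, 0 of the 8 passed and 3.18% of 15487 genes did (493 genes). The count at an unadjusted p under 0.05 was 0 of 8 in the 6 tumors by edgeR, DESeq2 and limma-voom, and 1 of 8, Tnfrsf9, without IFN-γ tumor 3 by edgeR. Of all genes tested, 10.2% (edgeR), 5.39% (DESeq2) and 9.83% (limma-voom) had such a p in the 6 tumors, and 16.3% without IFN-γ tumor 3 (edgeR). The median log2 fold change of the 8 genes was 0.06 in the 6 tumors and 0.40 without IFN-γ tumor 3, beside 0.002 and -0.016 over all genes tested. In the 6 tumors 0 of the 8 genes had groups that did not overlap, against 15.1% of all genes tested. Without IFN-γ tumor 3, Foxp3, Ikzf2, Il2ra and Tnfrsf4 were higher in both remaining IFN-γ tumors than in every control, or 4 of 8 against 18.1% of genes. Tnfrsf9 was lower in both, or 1 of 8 against 15.6%.

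**Figure D2:**
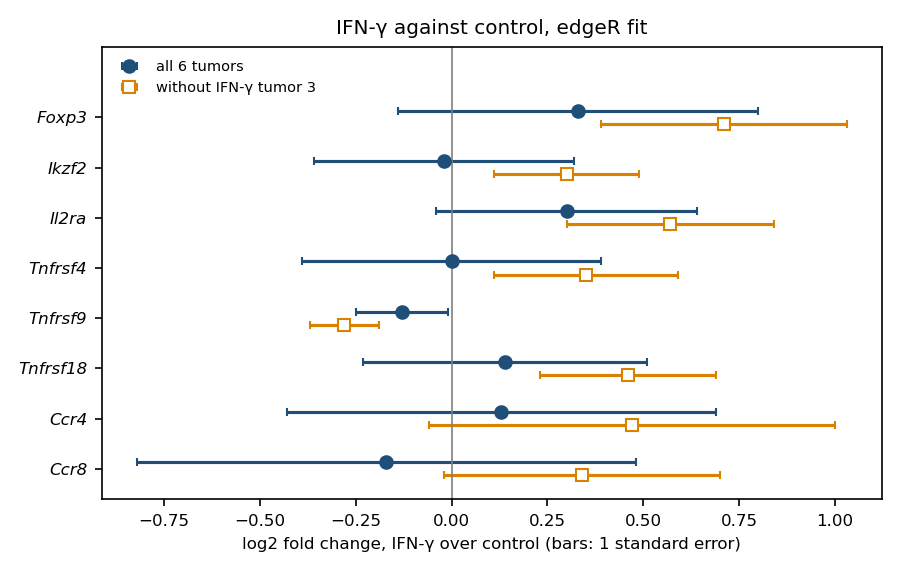
Log2 fold change of IFN-γ over control tumors (horizontal axis) for each gene, with bars of 1 SE, from the edgeR fit of all 6 tumors (filled circles) and the fit without IFN-γ tumor 3 (open squares). Without that tumor the values of 7 genes lie between 0.30 and 0.71 and that of Tnfrsf9 is -0.28, and none of the 8 passed the threshold in either fit.

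The levels of these genes were spread more widely among the IFN-γ tumors than among the controls. For the 7 genes other than Tnfrsf9, the SD of log2 CPM was from 0.14 to 0.34 among control tumors and from 0.68 to 2.14 among IFN-γ tumors. For Tnfrsf9 it was 0.03 and 0.23. The share of all genes tested with a wider spread among IFN-γ tumors is not given here. Since IFN-γ tumor 3 stood apart over all genes, the wider spread need not be particular to these genes. IFN-γ tumor 3 was the lowest of the 6 tumors for 7 of the 8 genes, as for 21.3% of all genes tested, and IFN-γ tumor 2 was the highest for the same 7, as for 18.2%. Both held for 7 of the 8 genes and for 5.39% of all genes tested. The ratio of IFN-γ tumor 2 to IFN-γ tumor 3 was 4.35 for Foxp3 (exact 95% interval 2.65 to 7.46), 2.57 for Il2ra (1.86 to 3.6) and 2.70 for Ikzf2 (1.87 to 3.96), covering counting error only. For Ccr8 it was 15.3, with an interval from 3.90 to 132 because of the 2 counts in IFN-γ tumor 3. For Tnfrsf9 it was 0.761 (0.673 to 0.861). Pearson's r of log2 CPM over the 6 tumors, given as a description, was from 0.71 to 0.98 in the 21 pairs of the 7 genes with a median of 0.90, and from -0.83 to -0.55 between Tnfrsf9 and each of them. The 2 IFN-γ tumors at the ends of the range are in every pair.

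**Figure D3:**
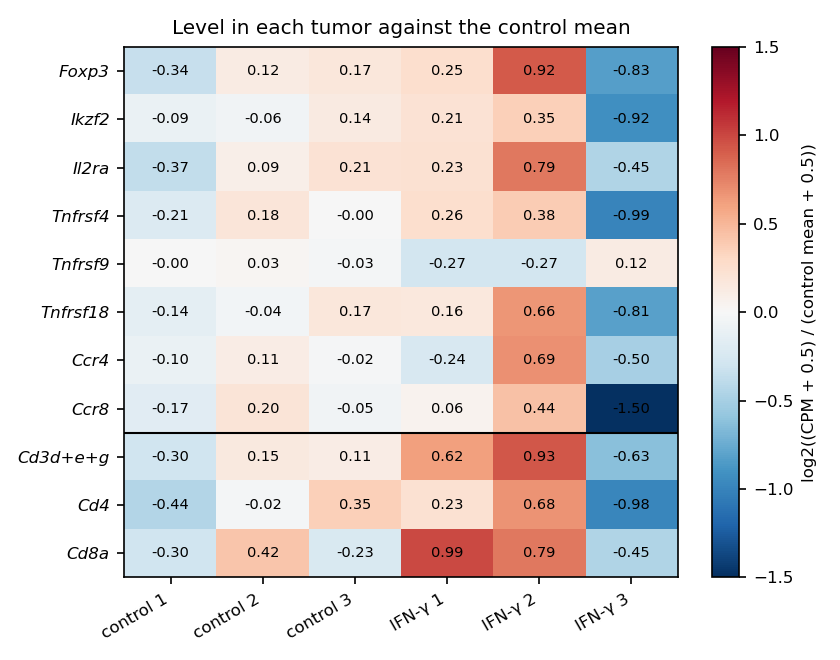
Log2 of the level in each tumor (columns) over the control mean, with 0.5 CPM added to each, for the 8 genes and, below the line, for the sum of Cd3d, Cd3e and Cd3g, for Cd4 and for Cd8a. The color scale is in log2 units and the printed values give Foxp3 at 0.92 in IFN-γ tumor 2 and -0.83 in IFN-γ tumor 3, the Cd3 sum at 0.93 and -0.63, and Tnfrsf9 at -0.27 and 0.12.

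The summed general T cell genes were also highest in IFN-γ tumor 2 and lowest in IFN-γ tumor 3. The summed CPM of Cd3d, Cd3e and Cd3g was 18.7, 25.8 and 25.0 in control tumors 1 to 3. It was 35.9, 44.7 and 14.8 after IFN-γ. Of the 14 genes of a T cell list, 13 were lowest in IFN-γ tumor 3 and 13 were highest in IFN-γ tumor 2, and the summed level of the list was 74.9 to 112 CPM in the controls and 137, 178 and 54.2 CPM in the IFN-γ tumors. Over the 6 tumors, the log2 level of Foxp3 followed that of the Cd3 sum with r = 0.96 (exact permutation p = 0.00556, adjusted over the 8 genes p = 0.0148) and rho = 0.94 (exact permutation p = 0.0167, adjusted p = 0.0267). Without IFN-γ tumors 2 and 3, the farthest from the median, r was 0.89. For Ikzf2, Il2ra, Tnfrsf4, Tnfrsf18 and Ccr8, r was from 0.83 to 0.95 (exact permutation p from 0.00278 to 0.0153, adjusted from 0.0148 to 0.0191). Their rho was from 0.83 to 1.0 (exact permutation p from 0.00278 to 0.0583, adjusted from 0.0222 to 0.0777, with Tnfrsf18 past 0.05), and r without those 2 tumors was from 0.61 to 0.92. For Ccr4 r was 0.75 (exact permutation p = 0.075, which adjustment over the 8 genes left at 0.075), rho was 0.66 (exact permutation p = 0.175, adjusted p = 0.175), and r was -0.41 without the 2 tumors, so that this relation rests on them. For Tnfrsf9 r was -0.92 (exact permutation p = 0.0167, adjusted p = 0.0191), rho was -0.77 (exact permutation p = 0.103, adjusted p = 0.118) and r without the 2 tumors was -0.82. Within the treatment groups, as deviations from the group means of 3 tumors each, r was from 0.95 to 0.99 for Foxp3, Ikzf2, Il2ra, Tnfrsf4, Tnfrsf18 and Ccr8 (exact permutation p within groups from 0.0278, the smallest possible, to 0.0556, adjusted p = 0.0741 for each). For Ccr4 it was 0.79 (exact permutation p = 0.361, adjusted p = 0.361) and for Tnfrsf9 -0.93 (exact permutation p = 0.222, adjusted p = 0.254). None passed 0.05 after adjustment within groups, and this form was chosen after seeing the data.

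Relative to the Cd3 sum, Foxp3 ranged less than on its own. Per 100 CPM of the Cd3 sum, Foxp3 had 10.3, 11.1 and 11.9 CPM in the controls and 8.87, 12 and 8.37 CPM in the IFN-γ tumors. The log2 ratio of Foxp3 to the Cd3 sum was -2.94 ± 0.06 (SD, n = 3) in the controls and -3.13 ± 0.18 (SD, n = 3) in the IFN-γ tumors, a difference of -0.19 (two-sided exact permutation p = 0.3, adjusted over 3 ratios p = 0.5). It ranged over 0.43 log2 units in the 6 tumors, against 1.76 for the log2 level of Foxp3 itself. The difference was 0.12 for the ratio to Cd4 (exact permutation p = 0.5, adjusted p = 0.5) and -0.35 for the ratio to Cd8a, a CD8 chain of cytotoxic T cells (exact permutation p = 0.4, adjusted p = 0.5). The ratio to Cd4 ranged over 0.43 log2 units in the 6 tumors and that to Cd8a over 1.14. Comparing 3 tumors with 3 cannot give a p below 0.1. Without IFN-γ tumor 3 the differences were -0.18, 0.11 and -0.32 for Cd3, Cd4 and Cd8a (exact permutation p = 0.6 for each, in a design that cannot go below 0.2). Cd4 itself had 7.06, 9.57 and 12.6 CPM in the controls and 11.5, 15.9 and 4.69 CPM in the IFN-γ tumors, and Cd8a had 11.9, 19.9 and 12.5 CPM in the controls and 29.9, 25.9 and 10.7 CPM in the IFN-γ tumors. Neither passed the threshold with or without IFN-γ tumor 3.

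The ratios of the other genes to the Cd3 sum were examined after their values were seen. For Ikzf2, Tnfrsf4 and Ccr8 the ratio was lower in all 3 IFN-γ tumors, tumor 3 included, than in every control, or 3 of the 8 genes against 1.65% of all genes tested. The Cd3 sum was lowest in IFN-γ tumor 3, which raises the ratio there for any gene that does not follow T cells. The share over all genes is therefore low by construction, also with the T cell list or Cd4 as the denominator. The log2 ratio of Ikzf2 was -2.04 ± 0.21 (SD, n = 3) in the controls and -2.47 ± 0.15 in the IFN-γ tumors. That of Tnfrsf4 was -2.63 ± 0.10 and -3.06 ± 0.11. That of Ccr8 was -3.75 ± 0.15 and -4.39 ± 0.20. Each had the smallest p that the exact permutation test can give, 0.1, which is 0.267 adjusted over the 8 genes, so none passed. With 1 CPM added in place of 0.5, the exact permutation p was 0.2 for Ikzf2 and 0.1 for Foxp3. It stayed at 0.1 for Tnfrsf4 and Ccr8. Which genes reached this smallest p thus depended on the amount added. Among the 11 genes of the T cell list outside the Cd3 sum, 1 (Cd5, which fell outside the rule for named genes and was named after its values were seen) had a ratio lower in every IFN-γ tumor, and their differences were from -0.35 to 0.13 with a median of -0.08. With the summed T cell list as the denominator, Tnfrsf4 and Ccr8 remained lower in every IFN-γ tumor, or 2 of 8 against 0.728% of genes, and Ikzf2 was lower in 2 of the 3. With Cd4 as the denominator 0 of the 8 were, against 0.165%, and the differences of the 3 genes were -0.13, -0.12 and -0.34.

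**Figure D4:**
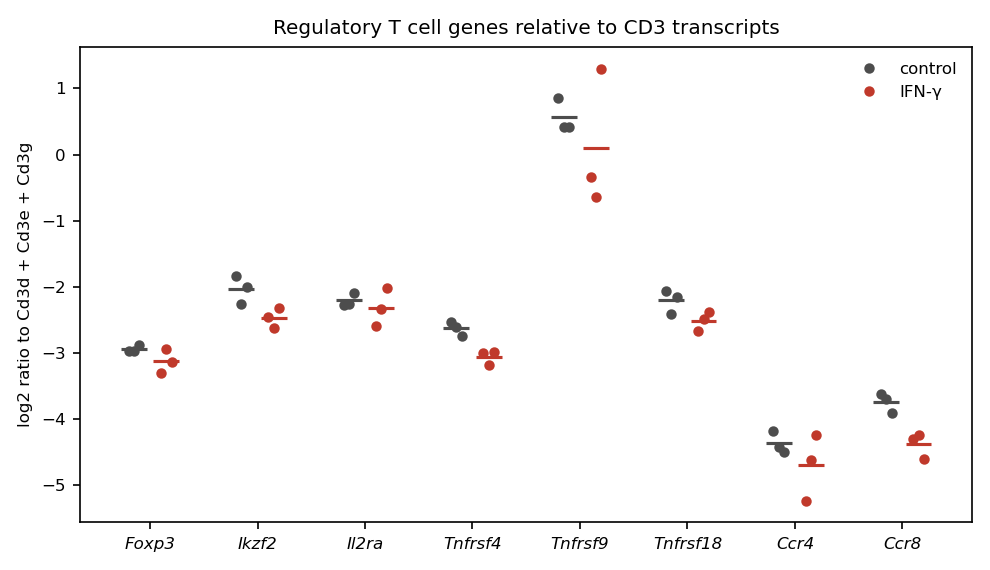
Log2 ratio of each gene's CPM to the summed CPM of Cd3d, Cd3e and Cd3g, with 0.5 CPM added to each (vertical axis), in every control and IFN-γ tumor (points) with group means (lines). The 3 IFN-γ points lie below the 3 control points for Ikzf2, Tnfrsf4 and Ccr8, and IFN-γ tumor 3 is the high point of Tnfrsf9 at 1.3.

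Genes of the wider regulatory T cell program were described from lists of its pathways. In the 6 tumors 0 of the 55 tested genes of 5 such lists passed the threshold by edgeR, 7 had an unadjusted p under 0.05 (against 10.2% of all genes), and 0 passed by limma-voom and 1, Havcr2, by DESeq2, which called 1.33% of genes. Havcr2 also passed by edgeR with no filter on low counts. In the fit without IFN-γ tumor 3, 5 of them passed, all of them higher in the IFN-γ group, where 2.46% of all genes were called higher. They were the chemokine gene Ccl8 and 4 of 18 tested genes for suppressive surface and secreted products. The last 4 were the inhibitory receptors Pdcd1 (log2 fold change 0.95 ± 0.20, edgeR adjusted p = 0.0407) and Havcr2 (0.97 ± 0.19, edgeR adjusted p = 0.0338), the ectoenzyme Entpd1 that degrades extracellular ATP (0.73 ± 0.13, edgeR adjusted p = 0.0255) and the secreted product Fgl2 (1.19 ± 0.21, edgeR adjusted p = 0.025). CD8 T cells and myeloid cells also make several of these. Without IFN-γ tumor 2, in place of tumor 3, the log2 fold changes were 0.62 for Pdcd1, 0.79 for Havcr2, 0.45 for Entpd1 and 0.54 for Fgl2, and none passed. In IFN-γ tumor 3 Havcr2, at 10.9 CPM, was above every control, which had 5.62, 8.45 and 7.13 CPM, while Fgl2, at 99.2 CPM, lay between its controls at 88.7, 167 and 137 CPM.

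Ctla4 and Icos, which regulatory T cells carry at high levels, did not pass the threshold. Ctla4 had 2.62, 4.05 and 3.48 CPM in the controls and 4.81, 7.69 and 1.42 CPM in the IFN-γ tumors (log2 fold change 0.45 ± 0.50, edgeR adjusted p = 0.82). Icos had 3.62, 5.01 and 5.59 CPM in the controls and 7.54, 12.3 and 3.64 CPM in the IFN-γ tumors (0.72 ± 0.40, edgeR adjusted p = 0.587). The log2 fold change of Icos was 1.05 without IFN-γ tumor 3 (edgeR adjusted p = 0.0793) and 0.24 without IFN-γ tumor 2. IFN-γ tumors 1 and 2 were above every control for both genes, and IFN-γ tumor 3 was below every control for Ctla4 alone. The inhibitory receptor Lag3 had a log2 fold change of 0.54 ± 0.28 and the cytokine Il10 of 0.44 ± 0.38, while Tigit was at -0.13 ± 0.14 and Tgfb1 at -0.03 ± 0.07. None of these 6 passed the threshold with or without IFN-γ tumor 3. Among the 16 transcription factors of regulatory T cells, 0 passed in either fit by edgeR, 2 had an unadjusted p under 0.05 in the 6 tumors (against 10.2% of genes), and 0 passed by DESeq2 or limma-voom. Their median log2 fold change was 0.09. Batf, a factor of effector regulatory T cells, had 3.56, 4.62 and 5.08 CPM in the controls and 7.42, 7.57 and 4.76 CPM in the IFN-γ tumors (0.57 ± 0.24, edgeR adjusted p = 0.477). Irf4 was at 0.11 ± 0.39, and Ikzf4, which encodes the Helios relative Eos, at -0.13 ± 0.30.

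Marker lists of other cell types moved with the same tumors in part. The summed level of 5 macrophage genes was 1350, 1460 and 1420 CPM in the controls and 1810, 1950 and 1350 CPM in the IFN-γ tumors. Among them Mrc1 went the other way, at 432, 390 and 407 CPM in the controls and 368, 369 and 321 CPM in the IFN-γ tumors. Its log2 fold change was -0.22 ± 0.08 (edgeR adjusted p = 0.437). For 6 natural killer cell genes the sum was 28.9, 43.5 and 44.8 CPM in the controls and 67.8, 74.2 and 21.2 CPM in the IFN-γ tumors. For 6 dendritic cell genes it was 32.0, 50.4 and 44.6 CPM in the controls and 63.0, 66.4 and 38.3 CPM in the IFN-γ tumors. Each of these sums was highest in IFN-γ tumor 2, as for Foxp3. Mast cells can also make Tnfrsf9. The sum of 5 mast cell genes was 424, 350 and 302 CPM in the controls and 334, 343 and 415 CPM in the IFN-γ tumors. IFN-γ tumor 3 was the highest of its group, as for Tnfrsf9. Control tumor 1 had the highest mast cell sum of all, while Tnfrsf9 was at 34.1, 34.8 and 33.5 CPM in the controls. Other lists had lower sums in the IFN-γ group in part. The sum of 4 epithelial or carcinoma genes was 13, 13.9 and 22.6 CPM in the controls and 9.45, 10.1 and 12.7 CPM in the IFN-γ tumors, each below every control. That of 4 endothelial genes was 197, 250 and 240 CPM in the controls and 209, 179 and 155 CPM in the IFN-γ tumors, and that of 5 B cell genes was 7.99, 12.5 and 9.02 CPM in the controls and 6.78, 7.99 and 6.55 CPM in the IFN-γ tumors. Their median log2 fold changes were -0.49 (3 genes tested), -0.30 (4) and -1.35 (4). The epithelial gene Epcam and the B cell gene Cd79b went the other way. Epcam had 0.312, 0.225 and 0.0571 CPM in the controls and 0.348, 0.488 and 0.926 CPM in the IFN-γ tumors. Cd79b had 4.06, 3.66 and 3.94 CPM in the controls and 5.62, 4.64 and 4.88 CPM in the IFN-γ tumors. Of 50 tested marker genes, 0 passed the threshold in the 6 tumors by edgeR (9 had an unadjusted p under 0.05, against 10.2% of genes, and 0 passed by limma-voom and 2, C1qa and the endothelial gene Kdr, by DESeq2). Once IFN-γ tumor 3 was left out, 5 of 50 passed, all higher, against 2.46% of genes. They were Cd6, Klrk1, Adgre1, Cd68 and C1qa, and like Kdr, Krt8, Mrc1 and Cd79b they were named after their values were seen. Klra8, a natural killer cell receptor gene, and the thymocyte genes Rag1 and Rag2 had 0 counts in every tumor. The part of these cell types in the levels of the 8 genes was not tested.

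The genes most like Foxp3 were found by Pearson's r over the 6 tumors in log2(CPM + 0.5), among 11326 genes with a mean of at least 5 CPM and without the other 7 genes. They were C1rb (r = 0.999), Rnf157 (0.996), Bin2 (0.993), Tbc1d4 (0.990) and Cd7 (0.990). In all, 268 genes, or 2.37%, had r above 0.9 with Foxp3. C1rb had 8.99, 11.6 and 11.6 CPM in the controls and 12.2, 17.2 and 7.23 CPM in the IFN-γ tumors, the same order of tumors as Foxp3. Over 6 tumors and many genes, high values of r are a description only.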

How the data were processed

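RNA-seq libraries of 6 subcutaneous CT26.WT tumors, 3 control and 3 IFN-γ, were examined. The authors deposited whole-number read counts per gene, not normalized. Per the labels, total RNA was extracted with Trizol, and the processing notes name HISAT2 and mm10. The counting program, annotation and strandedness are not given in the sources used here, which leaves overlapping genes uncertain. Totals were 15759300 to 17559680 counts per tumor.

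Counts were tested with edgeR 4.0.16 (R 4.3.3) by its quasi-likelihood test, after TMM scaling and filterByExpr at its defaults. P-values were adjusted by Benjamini-Hochberg over all genes tested, and the threshold was 0.05. The SE was the size of the log2 fold change divided by the square root of F. Alternatives were library size alone, upper-quartile factors, no filter on low counts, DESeq2 1.42.0, limma 3.58.1 (voom), a replicate block and leaving out each tumor. Same-numbered tumors did not deviate together (r from -0.214 to -0.0135), so the numbers were not taken as pairs. Ratios used log2 of CPM plus 0.5 and exact permutation tests (SciPy 1.17.1). Intervals of counts cover counting error only. TPM used exon lengths of GENCODE M21, which held 99.5% of the identifiers. No 2 libraries appeared to be duplicates.

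The 8 genes and all lists were chosen with earlier results of these data known. Named genes were the 8 genes, the ligands of their receptors, 13 fixed genes of the pathway lists, those lists' genes past the threshold with or without IFN-γ tumor 3, the CD3, CD4 and CD8 genes, and the 5 genes most like Foxp3. On simulated counts with 200 genes changed 2-fold, edgeR recovered 65.5% over 14888 genes in 6 tumors with 16 false calls, and 76% over 15221 genes without IFN-γ tumor 3 with 13. The changed genes were drawn from all genes that passed the filter. Counts were drawn for each gene independently, so no simulated tumor stood apart over many genes as IFN-γ tumor 3 did. All of the 8 genes but Tnfrsf9 lay below the median TPM of genes tested, and recovery at such levels was not measured.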

Additional observations from a re-analysis of the deposited data

How the results depend on the processing

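None of the 8 genes passed the threshold under any alternative, and the smallest adjusted p of any of them was 0.152 (Tnfrsf9 without IFN-γ tumor 3, edgeR). The count of all genes past the threshold was 17. It was 11 with library size alone, 220 with no filter on low counts, 191 with DESeq2, 7 with the replicate block, and from 6 (without control tumor 2 or IFN-γ tumor 1) to 493 (without IFN-γ tumor 3) when 1 tumor was left out. Genes of the pathway and marker lists past the threshold were 0, 10 without IFN-γ tumor 3, 3 by DESeq2 and 3 by edgeR unfiltered for low counts (Havcr2, C1qa and Kdr in both), the last 2 run after seeing the data. The replicate block changed no call of the 8 genes. Of 95 comparisons of the 8 genes, 12 changed sign, and of 466 over 39 genes, 37 did and 7, none of the 8 genes, newly passed the threshold. The cause was not tested. Log2 fold changes that changed sign by tool or scaling were Tnfrsf18 at -0.0024 and Ccr4 at -0.13 with limma-voom, Ccr4 at -0.014 with the replicate block, and Ccl22 at -0.025 with library size alone, -0.0023 with upper-quartile factors, -0.048 with limma-voom and -0.019 with the replicate block.

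Leaving out 1 tumor moved log2 fold changes across 0, the lowest mostly without IFN-γ tumor 2 and the highest mostly without IFN-γ tumor 3. The ranges were Foxp3 from -0.23 to 0.71, Ikzf2 from -0.27 to 0.30, Il2ra from -0.079 to 0.57, Tnfrsf4 from -0.27 to 0.35, Tnfrsf18 from -0.27 to 0.46, Ccr4 from -0.72 to 0.47, Ccr8 from -0.77 to 0.34, Tnfsf9 from -0.027 to 0.34, Ccl22 from -0.49 to 0.33, Il2rb from -0.057 to 0.67, Il2rg from -0.14 to 0.12, Ctla4 from -0.12 to 0.87, Ikzf4 from -0.38 to 0.091, Irf4 from -0.19 to 0.41, Cd3d from -0.028 to 0.87, Cd4 from -0.27 to 0.48, C1rb from -0.15 to 0.44, Rnf157 from -0.17 to 0.40, Bin2 from -0.19 to 0.30, Tbc1d4 from -0.065 to 0.14 and Cd7 from -0.23 to 0.45. Tnfrsf9 stayed below 0, from -0.28 to -0.062. The ratios of Foxp3 to Cd3, Cd4 and Cd8a, and those of Ikzf2, Tnfrsf4 and Ccr8 to Cd3, kept their sign under every alternative run, but not their size. Leaving out 1 tumor gave 0.015 to 0.185 for Foxp3 to Cd4 and -0.587 to -0.149 for Foxp3 to Cd8a, and a pseudocount of 0.1 gave -0.969 for Ccr8 to Cd3 in place of -0.644. Among genes that kept their sign, leaving out 1 tumor gave 0.13 to 1.0 for Ccl1, 0.16 to 0.85 for Ccl8, 0.24 to 1.05 for Icos and 0.19 to 0.72 for Il10. The ratios of Ikzf2, Tnfrsf4 and Ccr8 and their alternatives were chosen after seeing the data. Ccr4 and Ccr8, with 2 to 31 counts in a tumor, are limited by depth.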
